A study of Mus musculus with 2 samples.

Results

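The genes described here act on collagen after its chains are made: the prolyl 4-hydroxylase subunits *P4ha1* and *P4ha2*, the lysyl hydroxylases *Plod1* and *Plod2*, the collagen chaperone *Serpinh1* (HSP47), the procollagen C-proteinase enhancer *Pcolce*, and the lysyl oxidases *Lox*, *Loxl1*, *Loxl2* and *Loxl4*. They were taken by symbol from spatial count tables of the mouse fracture callus, and all 10 were found among the 19430 genes named there. The rule reads the symbols alone, though the genes were proposed with earlier results of these data known.

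Fibrous collagens are built in the endoplasmic reticulum, where proline hydroxylation lets 3 chains form a stable triple helix, lysine hydroxylation prepares the later crosslinks, and HSP47 holds the folded helix until export. Outside the cell the C-terminal propeptides are removed, a step that *Pcolce* speeds up, and the copper enzymes of the lysyl oxidase family oxidize lysines so that neighboring molecules join covalently. Cartilage and bone both depend on this pathway, since a healing callus lays down cartilage rich in collagen II and then replaces it with bone rich in collagen I.

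The data were Visium spatial transcriptomes of tibial calluses from 1 control mouse (*Nf1*[+/flox], no Cre) and 1 Nf1 Postn mouse (*Postn*-cre;*Nf1*[flox/-]), both 8 weeks old by the series description, taken 10 days after a fracture held by an intramedullary pin, with formalin fixation and 3 days of decalcification in 14% EDTA. In the mutant, Cre expressed from the periostin promoter deletes the floxed allele in the periosteum and its descendants while the second allele is lost in every cell, so the control, which keeps a wild-type allele next to an unrecombined floxed one, differs from it in more than the Cre. The samples were taken to be 2 sections of 1 block that held both calluses. The methods describe paired calluses of both genotypes in the same block and serial sections placed across slides. The labels, however, number the samples as biological replicates. On the reading of 1 block there was 1 mouse per genotype. Genotype then cannot be told apart from the mouse or from its place on the capture area, and no test was run.

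Each spot reads gene-specific probe pairs over a small disc of tissue that can hold several cells, and each unique molecular identifier (UMI) is 1 captured probe pair. Section 1 held 1700 control and 1341 Nf1 Postn spots, and section 2 held 1778 and 1556. The median depth was 7053 and 5718 UMIs per control spot but 2030 and 3239.8 per Nf1 Postn spot, so low genes were read less precisely in the mutant. The sections share 2711 spot barcodes because every array carries the same printed grid. A level is given as CPM, the UMIs of a gene per 1000000 UMIs of a group of spots, both summed over the group, with exact Poisson 95% intervals that cover counting error only. Each gene has its own probes, so levels were compared between groups of spots and not between genes. A gene was counted as lower or higher in Nf1 Postn where its level differed by at least 1.5-fold the same way in both sections. Genes entered this count with 50 or more UMIs per section, both genotypes together. *Nf1* itself was read at 87.8 and 79.0 CPM in the control and at 65.6 and 49.6 CPM in the Nf1 Postn callus (sections 1 and 2), and whether its probes lie in the deleted part is not known here.

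In the Nf1 Postn callus, *Plod2*, *Serpinh1*, *Lox*, *Loxl2* and *Loxl4* were lower in both sections, 5 of the 10 genes, and 0 were higher. Over all 11851 genes compared, 6.37% were lower and 8.20% higher by the same rule. Of all calls, 56.3% were higher, which fell to 32.2% with TMM factors (the scaling edgeR uses). Under these factors the median of all genes shifted by -0.28 in section 1 and -0.01 in section 2. *P4ha2* and *Plod1* then became lower as well, where 12.7% of all genes were lower and 6.01% higher. Without TMM factors, the median log2 difference of the 10 genes was -0.82 in section 1 and -0.86 in section 2. The median of all compared genes was 0.06 and -0.21. Without separate cell counts, fewer collagen-producing cells in a callus and less RNA per cell cannot be told apart.

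**Figure D1:**
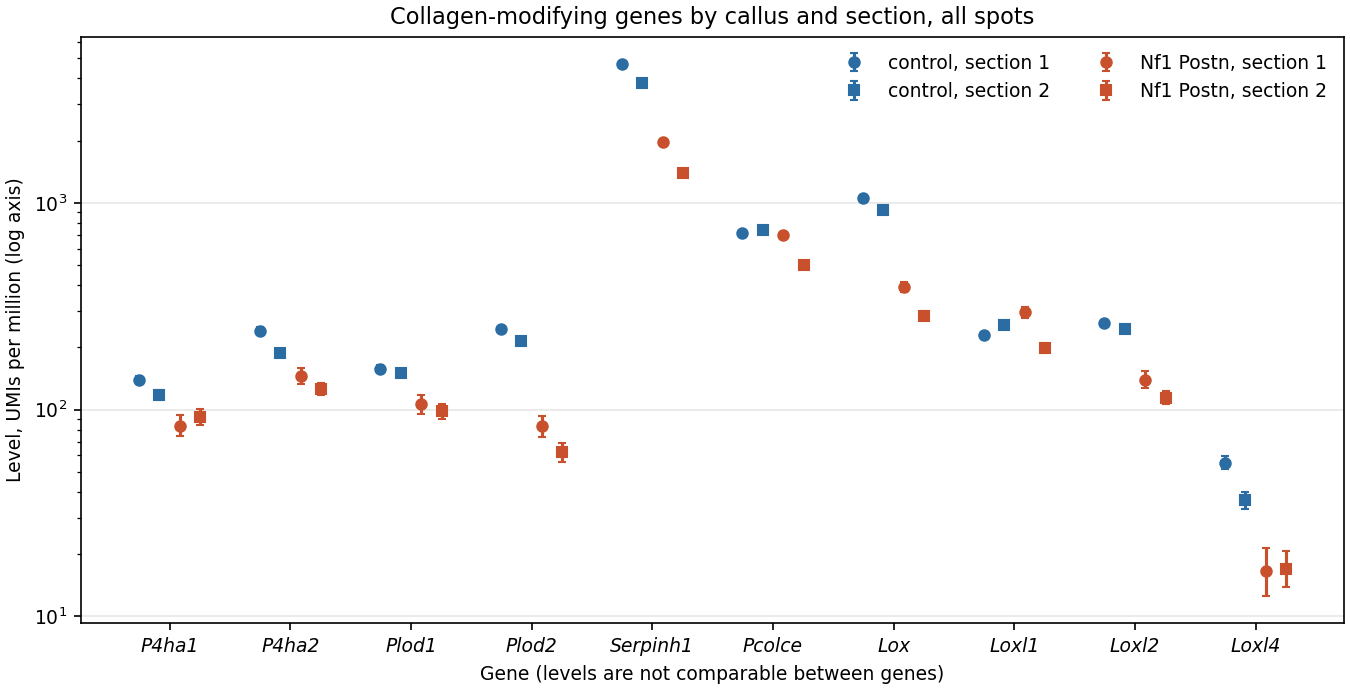
Level of each gene (CPM, log axis) in the control (blue) and Nf1 Postn (orange) callus, with circles for section 1, squares for section 2 and bars for exact Poisson 95% intervals. For every gene except *Loxl1*, both control points lie above both Nf1 Postn points, narrowly so for *Pcolce*. The points of *Loxl1* overlap between the calluses.

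Among the prolyl hydroxylases, *P4ha1* (ENSMUSG00000019916, chromosome 10, 59159118 to 59209126 in mm39) was at 139 and 117 CPM in the control and at 83.5 and 92.1 CPM in the Nf1 Postn callus. The *P4ha2* level (ENSMUSG00000018906, chromosome 11, 53990921 to 54022491) was 241 and 188 CPM in the control and 146 and 126 CPM in the mutant. For both genes each mutant section lay below both control sections. The difference was 1.67-fold and 1.27-fold for *P4ha1* and 1.66-fold and 1.49-fold for *P4ha2*, so neither reached 1.5-fold in section 2.

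The lysyl hydroxylases separated. *Plod1*, which hydroxylates lysines of the helical part of collagen (ENSMUSG00000019055, chromosome 4, 147994210 to 148021224), was at 158 and 150.2 CPM in the control and at 106 and 98.1 CPM in the Nf1 Postn callus, 1.49-fold and 1.53-fold lower and so just short of the rule. *Plod2*, which acts on the telopeptide lysines and thereby sets the type of crosslink (ENSMUSG00000032374, chromosome 9, 92424276 to 92490481), was at 244 and 215 CPM in the control and at 83.2 and 62.0 CPM in the mutant. Its log2 difference was -1.55 (-1.73 to -1.38) in section 1 and -1.79 (-1.95 to -1.64) in section 2. The *Plod1* difference was -0.58 (-0.74 to -0.42) and -0.61 (-0.75 to -0.48), and the counting intervals of the lysyl hydroxylases did not overlap in either section.

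*Serpinh1* (ENSMUSG00000070436, chromosome 7, 98994583 to 99002446) had the most UMIs of the 10 genes, which gave it narrow intervals. Its level was 4695 and 3801 CPM in the control and 1980.2 and 1403 CPM in the Nf1 Postn callus, 2.37-fold and 2.71-fold lower. *Pcolce* (ENSMUSG00000029718, chromosome 5, 137603365 to 137612046) was at 716 and 737 CPM in the control and 699 and 500.5 CPM in the mutant. In section 1 its log2 difference was -0.03 (-0.10 to 0.03), and in section 2 it was -0.56 (-0.62 to -0.50), 1.47-fold lower.

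Of the lysyl oxidases, *Lox*, the family's founding enzyme, was at 1061 and 921 CPM in the control and at 391 and 285 CPM in the Nf1 Postn callus, a log2 difference of -1.44 (-1.52 to -1.36) and -1.69 (-1.77 to -1.62). The *Loxl2* level (ENSMUSG00000034205, chromosome 14, 69846517 to 69933283) was 261 and 245 CPM in the control and 139.5 and 114 CPM in the mutant, 1.87-fold and 2.15-fold lower. *Loxl4* (ENSMUSG00000025185, chromosome 19, 42582421 to 42601252) had the fewest UMIs, at 55.4 and 36.5 CPM in the control. It was 3.36-fold lower in the mutant of section 1, at 16.5 CPM, and 2.14-fold lower in that of section 2, on 57 and 102 mutant UMIs. Only *Loxl1*, a paralog that is tied to elastic fibers (ENSMUSG00000032334, chromosome 9, 58195021 to 58220469), went opposite ways in the sections among these 10 genes. It was at 229 and 257 CPM in the control and at 295 and 199 CPM in the Nf1 Postn callus, a log2 difference of 0.36 (0.26 to 0.46) in section 1 and -0.37 (-0.47 to -0.27) in section 2.

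The calluses also differed in which tissues the spots covered. The 7 listed muscle genes summed to 12536 and 18939.5 CPM in the control and 57317 and 104785 CPM in the Nf1 Postn callus, and all 7 were higher in both sections. The 6 cartilage markers summed to 45274 and 28440 CPM in the control and 3937 and 7977 CPM in the mutant, and all 6 were lower. All 5 osteoblast markers were lower too, summing to 4249 and 4101 CPM against 2252 and 1416 CPM, as were 4 of 5 osteoclast markers (7549.9 and 6323 CPM against 3581 and 1598 CPM). All 4 erythroid markers measured were higher (161 and 291 CPM against 1815 and 1641 CPM), and so were all 3 Schwann cell markers (45.7 and 62.9 CPM against 176 and 298 CPM). Leaving out the clusters led by muscle or globin genes, described later, gave the same 5 lower genes, where 1.90% of all genes were lower, with smaller differences: the mean log2 difference over the sections went from -1.67 to -1.12 for *Plod2*, from -1.34 to -0.84 for *Serpinh1* and from -1.56 to -1.02 for *Lox*. Leaving out the cartilage clusters gave 4, without *Loxl2*, where 6.10% of all genes were lower, and leaving out woven bone as well gave 5, where 5.92% were. Leaving out the muscle, globin, cartilage and woven bone clusters together gave 3, namely *Plod2*, *Serpinh1* and *Lox*, where 1.68% of 10742 genes were lower. Their mean log2 differences were then -0.65, -0.65 and -0.70, nearer to 0 than over all spots and just past the 1.5-fold rule. Cluster 8, led by *Retnla* and *Ache*, stayed in under these settings, so muscle was not fully left out. Its muscle genes summed to 64128 and 90473 CPM in the control and 56356 and 87738 CPM in the mutant. It held 253 and 123 Nf1 Postn spots against 32 and 21 control spots. The settings that leave out cartilage or woven bone were chosen after the data were seen. The part of muscle and of cartilage in the differences was not tested beyond these values.

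Over all spots the same direction was common in the rest of the pathway. Of the 28 other genes listed for collagen modification, folding, export, processing and crosslinking, 13 were lower and 1, *Tmem38b*, was higher in both sections, where 6.37% of all genes were lower and 8.20% higher. The largest of these differences were *Loxl3*, a further lysyl oxidase (log2 -1.05 and -1.33), *Adamts3*, a procollagen N-proteinase (-1.32 and -0.96), *Creb3l1*, a transcription factor of the secretory pathway (-0.93 and -1.29), *Fkbp10*, a foldase that acts with lysyl hydroxylase 2 (-0.82 and -1.29), *Ppib*, a prolyl isomerase of the proline 3-hydroxylation complex (-0.79 and -1.12), and *Plod3*, a lysyl hydroxylase that also glycosylates collagen (-0.98 and -0.84). *Tmem38b*, an ion channel of the endoplasmic reticulum, had the log2 differences 0.70 and 0.92. Fewer of the 28 were lower within the clusters and collagen strata described later. The count was at most 1 in any cluster, with 4 to 25 of the 28 having enough UMIs. In cluster 3, the one with 25, it was 0, where 3.45% of all genes were lower. From the lowest to the highest stratum it was 5 of 20, 3 of 26, 2 of 26 and 1 of 26 with enough UMIs. The shares of all genes there were 6.47%, 3.15%, 2.66% and 2.03%. The substrates did not move alike. *Col1a1* was at 36328 and 37808 CPM in the control and 23866 and 16880.4 CPM in the Nf1 Postn callus. All 6 cartilage collagens were lower. *Col3a1* was at 6163 and 7016 CPM in the control and 7536 and 5301 CPM in the mutant.

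To set the enzymes against their substrate, each gene was also divided by the summed UMIs of *Col1a1*, *Col1a2*, *Col3a1*, *Col5a1* and *Col5a2*, which made up 8.01% and 5.64% of Nf1 Postn UMIs and a larger share of control UMIs (11.4% in section 2). *Lox* gave 9.62 and 8.05 UMIs per 1000 of these collagen UMIs in the control and 4.89 and 5.05 in the mutant. *Plod2* gave 2.21 and 1.88 in the control and 1.04 and 1.10 in the mutant. These 2 genes were lower by the rule, which 0.608% of all genes were. *Serpinh1* gave 42.6 and 33.3 in the control and 24.7 and 24.9 in the mutant, 1.72-fold below the control in section 1 but 1.34-fold in section 2. *Loxl1* was higher per collagen UMI, at 2.08 and 2.25 in the control and 3.68 and 3.53 in the mutant, on a scale where 39.3% of all genes were higher. The *Loxl1* call was lost when spots were thinned to 1000 UMIs, and the *Lox* call was lost against *Col1a1* alone and against fibrous and cartilage collagens together, while *Plod2* stayed lower in these 3 settings.

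In the control callus, the genes occupied different places. Spots were clustered on a neighbor graph with these and all other listed genes left out, which gave 13 clusters. A cluster took a skeletal name where most of its section 1 control spots carried that name in the authors' published spot table (51.0% to 95.5%). Clusters 9 (led by *Col10a1* and *Ihh*, genes of hypertrophic cartilage) and 12 (led by the chondrocyte genes *Ucma* and *Scrg1*) matched cartilage, cluster 2 (led by the osteoclast genes *Acp5* and *Siglec15*) woven bone, cluster 3 (led by *Gpnmb* and *Ccl7*) ossifying perichondrium, and clusters 6 and 7 progenitor. Only 38 spots stood behind the match of cluster 6. Cluster 7 matched in 77.5% of such spots, but its 10 leading genes held the adipocyte markers *Cfd* and *Adipoq* beside *Cadm4* and *Cxcl14* and 1 listed periosteum and fibroblast marker, *Pi16*, so clusters 6 and 7 are called by their leading genes.

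**Figure D2:**
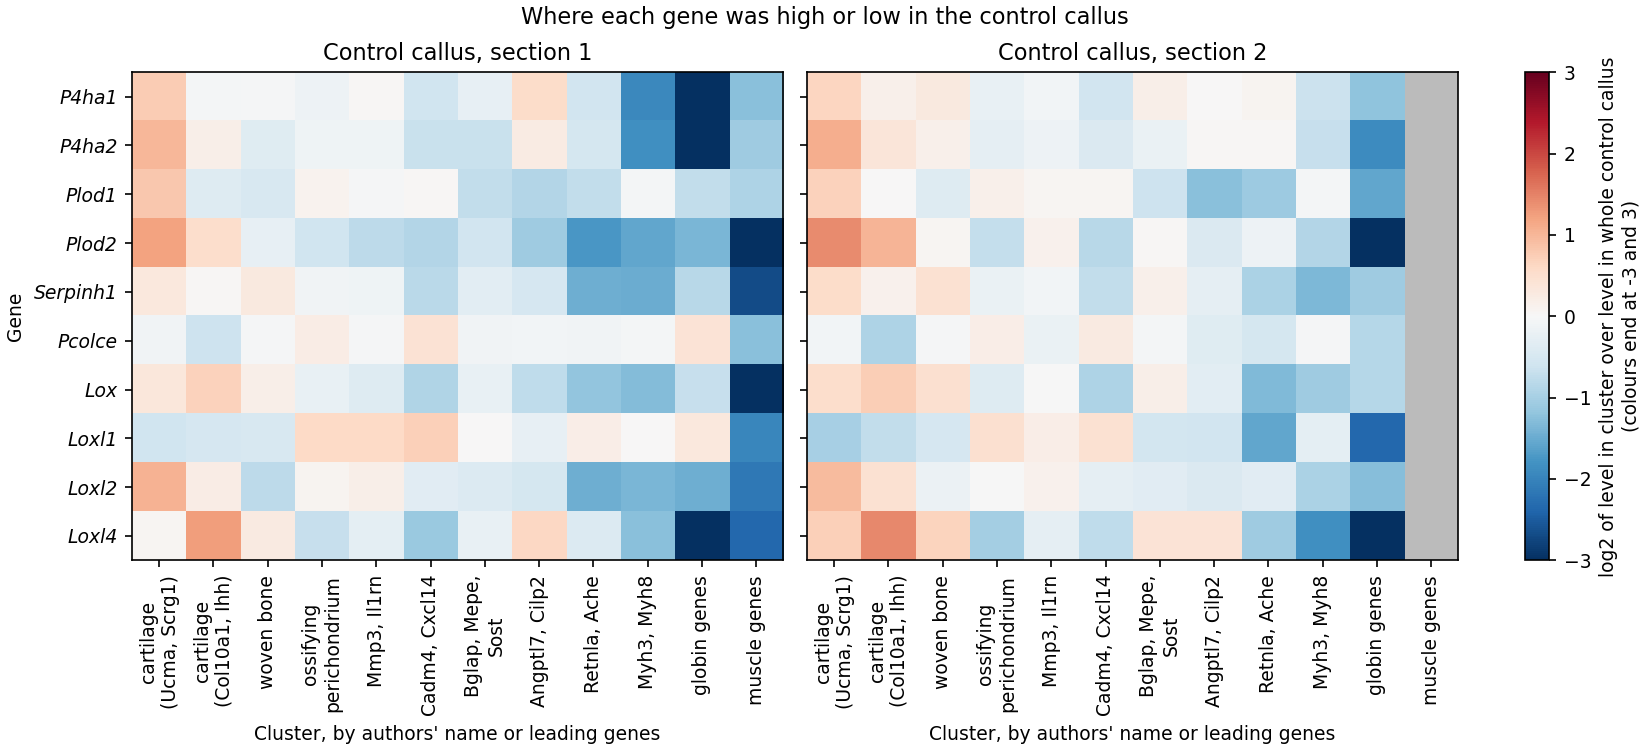
Level of each gene in each cluster of the control callus over its level in the whole control callus (log2 color scale ending at -3 and 3), for section 1 at left and section 2 at right. Gray marks a cluster with under 20 control spots. In both sections *Plod2*, *P4ha2* and *Loxl2* were above their callus level in the cartilage clusters, and *Loxl1* was above it in ossifying perichondrium and the *Cadm4*-led cluster and below it in cartilage.

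Control cartilage held more *P4ha2*, *Plod1*, *Plod2* and *Loxl2* than control woven bone in both sections, 4 of 10 genes, and 0 held less, where 4.91% of 8513 genes were higher and 15.3% lower (7.67% and 8.81% with TMM factors, which called the same 4 genes). *Plod2* was at 489 and 529 CPM in cartilage and at 205 and 224 CPM in woven bone. *Loxl2* was at 452 and 424 CPM in cartilage and 152 and 218 CPM in woven bone, 2.97-fold and 1.94-fold. *Serpinh1* was at 5469.8 and 5091 CPM in cartilage and 5725 and 5231 CPM in woven bone, a log2 difference of -0.07 (-0.09 to -0.04) and -0.04 (-0.08 to 0.00).

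Within cartilage the *Col10a1*-led and *Ucma*-led clusters differed by gene. *Lox* was at 1700.1 and 1529.8 CPM in the *Col10a1*-led cluster and at 1332 and 1319 CPM in the *Ucma*-led one, and *Loxl4* at 132 and 99.7 CPM against 57.8 and 59.5 CPM. *Plod2* ran the other way, with 350.4 and 439 CPM in the *Col10a1*-led cluster and 566 and 577 CPM in the *Ucma*-led one. The counting intervals of these pairs did not overlap within a section, except those of *Loxl4* in section 2 (73.7 to 132 against 44.7 to 77.6). *Lox* was ordered cartilage (1766 CPM), woven bone (1243), ossifying perichondrium (953), distal cortical bone (672) and progenitor (577) by the authors' own labels in section 1, and only the intervals of the last 2 overlapped between neighbors.

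*Loxl1* and *Pcolce* were laid out otherwise. *Loxl1* was at 344 and 359 CPM in ossifying perichondrium and 374 and 350.4 CPM in cluster 7 (*Cadm4*-led), with overlapping intervals. Cluster 6 (*Mmp3*-led), at 346 and 293 CPM, was also above the control callus level of 229 and 257 CPM. In cartilage it was at 162 and 155 CPM in the *Col10a1*-led and 152 and 129 CPM in the *Ucma*-led cluster. *Pcolce* was at 960.4 and 883 CPM in cluster 7 and 842 and 851 CPM in ossifying perichondrium. It was at 465 and 389 CPM in the *Col10a1*-led cartilage but at 665 and 701 CPM in the *Ucma*-led cartilage, near the 703 and 725 CPM of woven bone.

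**Figure D3:**
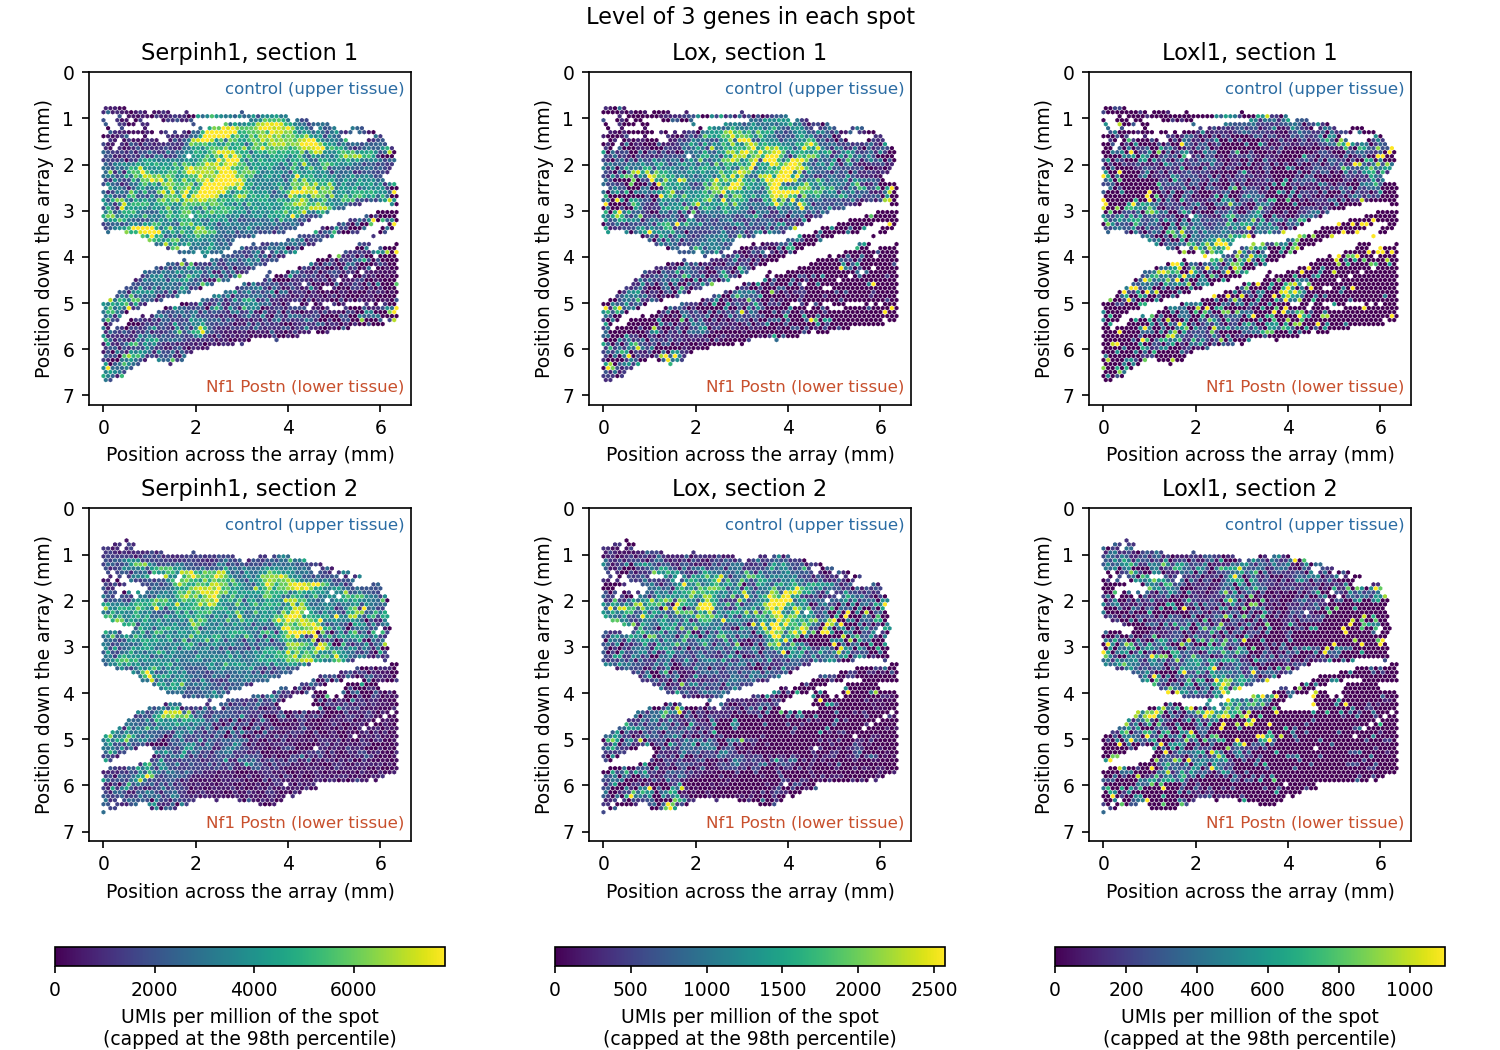
Level of *Serpinh1*, *Lox* and *Loxl1* in each spot (CPM of that spot, colors capped at the 98th percentile) at its position on the array (mm), with the control callus as the upper and the Nf1 Postn callus as the lower tissue in each panel. High *Serpinh1* and *Lox* spots lie in the middle of the control callus, and *Loxl1* is high at its lower edge and in parts of the Nf1 Postn callus.

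SpatialTime is the authors' relative distance of a spot from the fracture plane, given for 1344 control spots of section 1, with 0 at the plane. From the nearest bin (0 to 4) to the farthest (20 to 25), *P4ha1*, *P4ha2*, *Plod1*, *Plod2*, *Lox* and *Loxl2* were at least 1.5-fold lower, 6 of 10, and 0 were higher, where 8.50% of 9295 genes were lower and 16.1% higher (12.1% and 10.9% with TMM factors, which called the same 6 genes). *Loxl2* was at 487, 262, 145, 166 and 166 CPM from the nearest to the farthest bin. *Plod2* was at 425, 229, 194, 165 and 165 CPM and *P4ha2* at 394, 214, 204, 197 and 162 CPM, so most of their decrease lay between the nearest 2 bins. *Serpinh1* peaked in the middle, at 4727, 5327, 5766, 4946 and 3938 CPM, and *Loxl4* in the second bin, at 81.2 CPM against 46.2 and 35.5 CPM at the ends. *Pcolce* was highest in the farthest bin, at 932 CPM against 631 CPM in the nearest. The cartilage collagens *Col2a1*, *Col9a1*, *Col9a2* and *Col9a3* were also lower in the farthest bin, by log2 differences of -3.97, -3.59, -3.88 and -4.26, while *Col1a1* and *Col1a2* were higher (0.71 and 0.99).

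**Figure D4:**
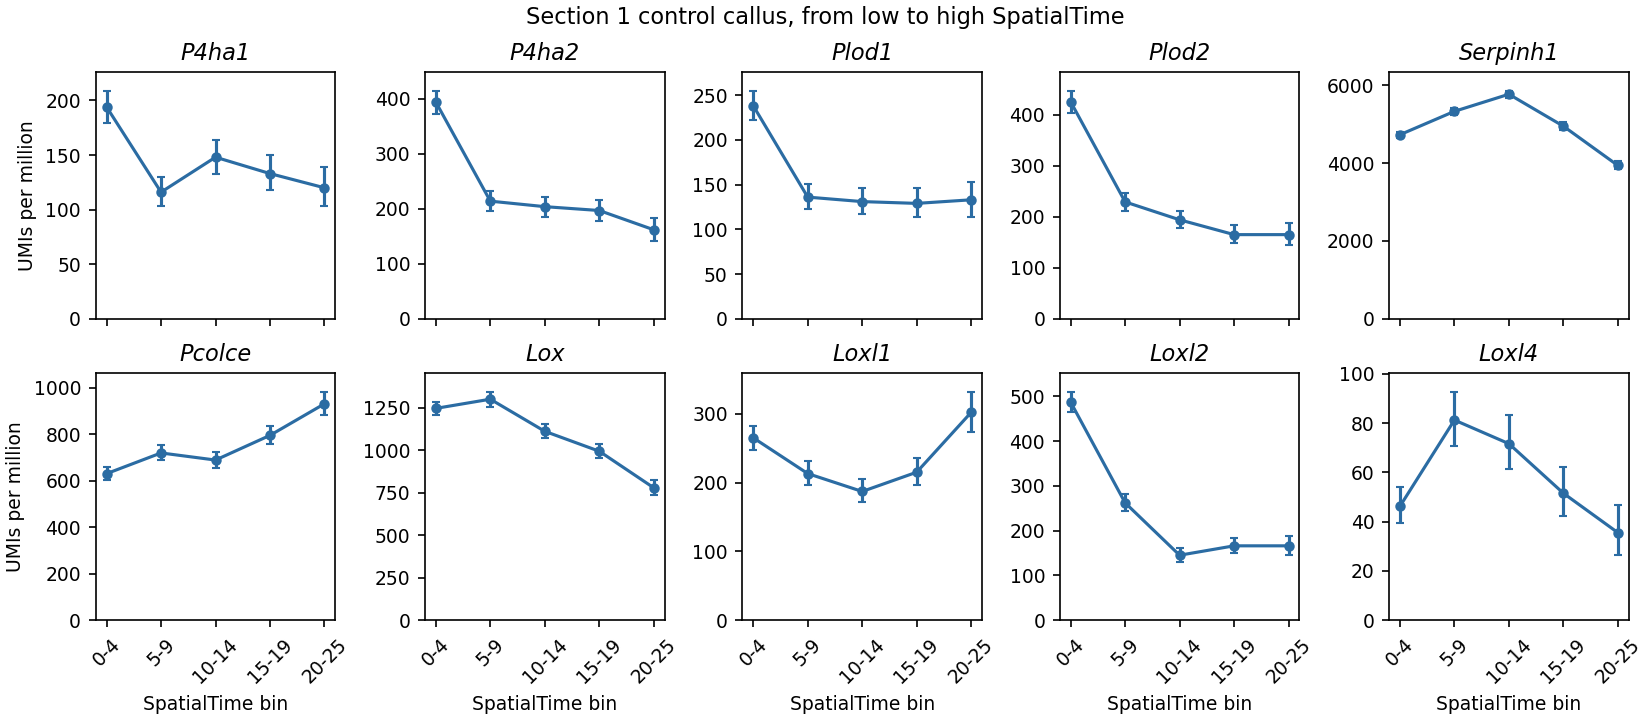
Level of each gene (CPM, axes from 0) in 5 bins of SpatialTime, from the fracture plane at left, over section 1 control spots, with exact Poisson 95% intervals. *P4ha2*, *Plod1*, *Plod2* and *Loxl2* drop after the first bin, *Serpinh1* and *Loxl4* peak inside the range, and *Pcolce* is highest at its end.

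Position along the long axis of each callus was read in 1 mm bins from left to right. In the control, *Plod2* was highest in the bin from 3 to 4 mm, at 457 and 374 CPM, against 135 and 154 CPM in the bin from 0 to 1 mm, and that bin also held the most cartilage marker UMIs (108111 and 86983 CPM). In the Nf1 Postn callus *Serpinh1* was at 2827 and 2508 CPM in the first bin and 883 and 378 CPM in the bin from 6 to 7 mm. The mutant *Lox* level went from 637 and 599 CPM to 113 and 60.6 CPM between these bins. The muscle genes went from 6584 and 13561 CPM to 147343 and 181894 CPM between them, and their part in the decrease was not tested. At the left end, 0 to 1 mm, *Lox* was at 667 and 757 CPM in the control and 637 and 599 CPM in the mutant, the closest the calluses came among the bins from 0 to 6 mm. The muscle genes summed to 46221 and 28112 CPM in that control bin, above the mutant, and their part was not tested. Each axis starts at the left end of its own callus, so a bin need not cover the same anatomy in both.

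The genotypes were then compared within clusters that held at least 20 spots of each genotype over both sections and some of each in every section. Cartilage and woven bone could not be compared, since the Nf1 Postn callus had 0 and 27 spots in cluster 9, 0 and 1 in cluster 12 and 7 and 11 in cluster 2. Over the 9 clusters left, 59 pairs of gene and cluster had enough UMIs, of which 6 were lower and 0 higher, where 2.64% of all pairs were lower and 1.55% higher.

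In cluster 3, ossifying perichondrium, with 24 and 43 mutant spots, 0 of 10 genes were lower, and 3.45% of all genes were. *Serpinh1* was at 4359 and 3298 CPM in the control and 3823 and 2610.4 CPM in the Nf1 Postn spots of that cluster. *Lox* was at 908 and 700.3 CPM in the control and 629.5 and 472 CPM in the mutant, a log2 difference of -0.53 and -0.57 that stayed just inside 1.5-fold. *Plod2* was 2.54-fold lower in section 1, on 18 mutant UMIs, and 1.06-fold lower in section 2. Cartilage markers summed to 18025 and 8042 CPM in these control spots against 2221 and 7958 CPM in the mutant. Muscle genes summed to 4203 and 9692 CPM against 16156 and 11879 CPM. Cluster 7, led by *Cadm4* and *Cxcl14*, also had 0 lower of 9 genes with enough UMIs, where 2.21% of all genes were. *Lox* was there at 572 and 485 CPM in the control and 446 and 331 CPM in the mutant, while *Loxl1* was at 374 and 350.4 CPM in the control and 476 and 501 CPM in the mutant. Its cartilage markers summed to 7433 and 5999 CPM in the control against 2049 and 2435 CPM in the mutant. The part of these tissue markers in the values of clusters 3 and 7 was not tested.

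*Lox* was the gene most often lower within clusters. It was lower in cluster 4, led by the bone genes *Bglap*, *Mepe* and *Sost*, at 904 and 1048 CPM in the control and 589 and 564 CPM in the mutant (1 of 9 genes; 1.28% of all genes). It was also lower in cluster 11, led by the regenerating muscle genes *Tnnt2*, *Myh3* and *Myh8*, at 431 and 439 CPM against 229 and 272 CPM (1 of 7; 2.71%). Tissue markers moved within these clusters too. In cluster 4 the osteoblast markers summed to 10945 and 10012 CPM in the control and 5407 and 5506 CPM in the mutant, and the erythroid markers to 587 and 510 CPM against 3066 and 2766 CPM. In cluster 11 the osteoblast markers summed to 2634 and 1471 CPM against 626 and 689 CPM and the cartilage markers to 4478 and 4598 CPM against 908 and 1377 CPM. Their part in the *Lox* differences was not tested. In cluster 1, led by muscle genes, *Lox* was at 133 and 155 CPM in the control and 70.1 and 84.9 CPM in the mutant (1 of 5; 2.23%), though only 12 control UMIs stood behind the section 2 value. *Loxl2* was lower in cluster 6, led by *Mmp3* and *Il1rn*, at 295 and 269.7 CPM against 189 and 165 CPM (1 of 8, against 2.08% of all genes). In section 1 this rested on 52 control and 34 mutant UMIs, with a log2 interval of -1.31 to 0.01. The cartilage markers there summed to 17808 and 30834 CPM against 6005 and 15868 CPM, and their part was not tested. *Serpinh1* and *Pcolce* were lower in cluster 5, led by globin genes, where both had enough UMIs and no other member did (2 of 2; 5.57%), but with 8 to 36 control UMIs for each gene and section. Clusters 8, led by *Retnla* and *Ache*, and 10, led by *Angptl7* and *Cilp2*, had 0 lower of 6 (1.64%) and 0 of 3 (3.31%).

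Among clusters with enough UMIs, *Serpinh1* was below the control in both sections in 8 of 9 and *Lox* in 6 of 8, of which 1 and 3 passed 1.5-fold. *Plod2* was below it in 3 of 3 and *Loxl2* in 4 of 6, of which 0 and 1 passed. Others were mixed: *Pcolce* was below in 3 and above in 4 of 9, *P4ha2* in 2 and 1 of 7, *Plod1* in 2 and 1 of 5, and *P4ha1* in 1 and 1 of 4. *Loxl4* had enough UMIs in 1 cluster and went opposite ways there. *Loxl1* was above the control in both sections in 5 of 7 clusters and below it in both in 0. In cluster 8, 1 of these, only 5 control UMIs stood behind its section 2 value. The share of all genes on the same side in both sections was not counted, so these direction counts have no background.

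A split that used no clustering sorted spots at the quartiles of the share of their UMIs from the 5 fibrous collagens (4.83%, 8.14% and 11.1%) into 4 strata. From the lowest to the highest stratum, 6 of 9, 4 of 10, 5 of 10 and 1 of 10 genes were lower in Nf1 Postn, where 6.47%, 3.15%, 2.66% and 2.03% of all genes were. None of the 39 pairs of gene and stratum was higher, against 3.24% of all pairs. *Lox* was lower in every stratum. In the highest one it was at 1211 and 1157 CPM in the control and 742 and 761 CPM in the mutant, and in the lowest at 415 and 576 CPM against 126 and 98.7 CPM.

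*Plod2* was lower in strata 1, 2 and 3. In stratum 3 it was at 247 and 238 CPM in the control and 86.7 and 94.4 CPM in the mutant, and in stratum 4 at 208 and 218 CPM against 147 and 161 CPM. *Serpinh1* behaved likewise, with a log2 difference of -0.82 (section 1) and -0.52 (section 2) in stratum 4. *Loxl2* was at 317 and 289.7 CPM in the control and 175 and 184 CPM in the mutant in stratum 3, but at 202 and 223 CPM against 181 and 202 CPM in stratum 4, where the difference was not detectable at this depth. *Loxl1* was above the control in both sections in strata 2, 3 and 4, at 194 and 218 CPM in the control and 302 and 294 CPM in the mutant in stratum 4, and no stratum passed the rule. In stratum 1 it went opposite ways in the sections, at 87.7 and 153 CPM in the control and 188 and 72.2 CPM in the mutant. Spots of like collagen share still differed in tissue: cartilage markers summed to 16043 and 13189.9 CPM in the control and 3364 and 10916 CPM in the mutant in stratum 4, and to 88608 and 39109.7 CPM against 5101 and 15381 CPM in stratum 2. In stratum 1 they summed to 61514 and 63757 CPM in the control and 2562 and 3314 CPM in the mutant, and the muscle genes to 91906 and 56488 CPM against 126698 and 163698 CPM. The muscle genes were above the control in both sections in all 4 strata, with 9485 and 24902 CPM against 44201 and 50985 CPM in stratum 2. In stratum 3 the cartilage markers summed to 45551 and 31470.4 CPM in the control against 5076 and 12918 CPM in the mutant. The osteoblast markers were below the control in both sections in all 4 strata, with 7513 and 7611 CPM against 5560.3 and 5052 CPM in stratum 4. The part of the cartilage, muscle and osteoblast markers in the differences was not tested.

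**Figure D5:**
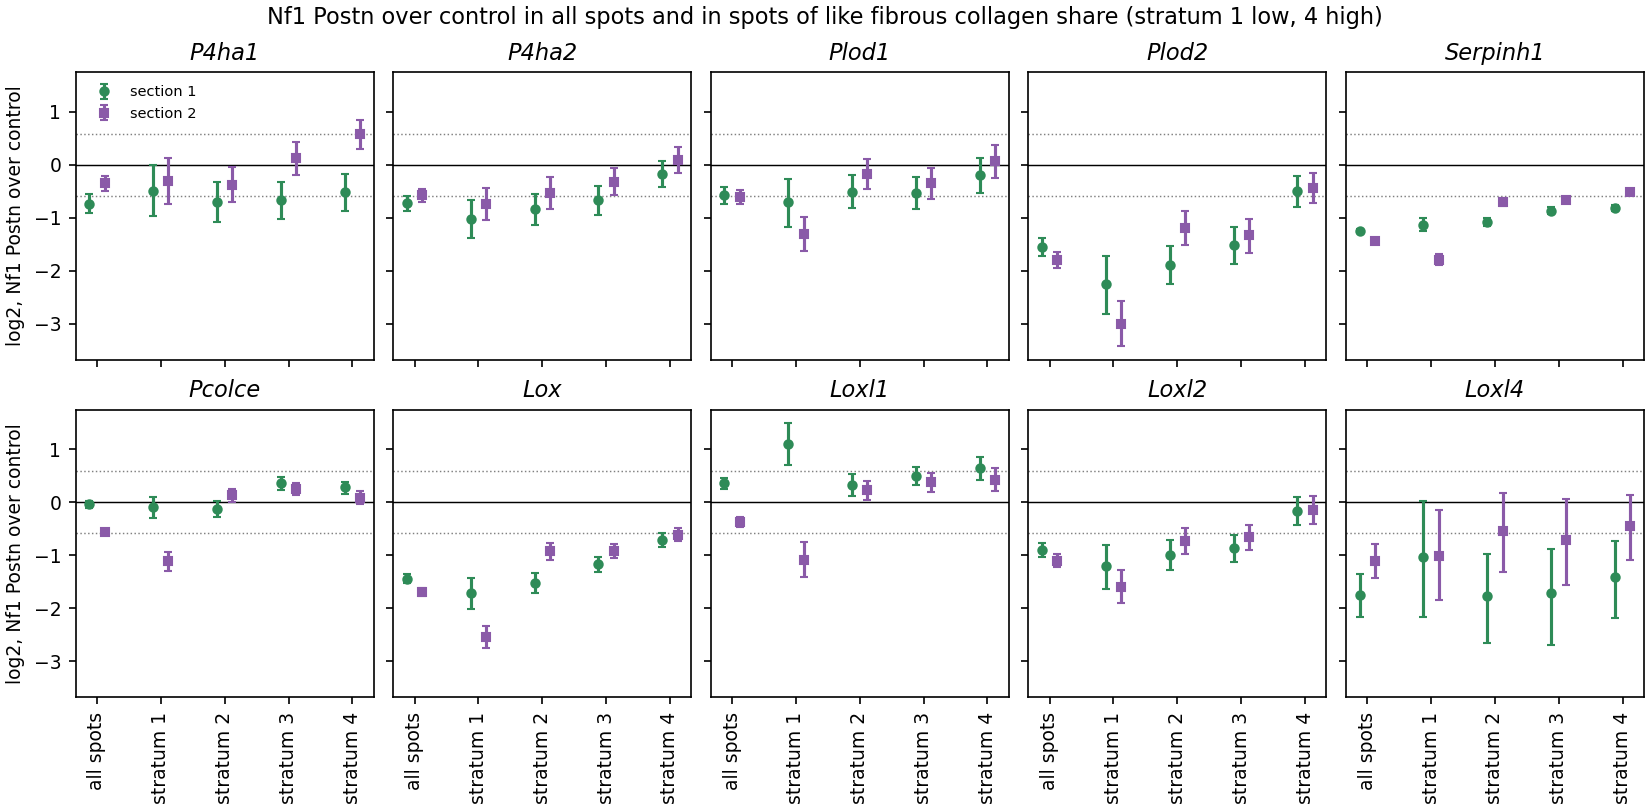
Difference between Nf1 Postn and control (log2, below 0 is lower in Nf1 Postn) for each gene in all spots and in 4 strata of spots from low (1) to high (4) fibrous collagen share, with circles for section 1, squares for section 2 and bars for exact 95% counting intervals. Dotted lines mark 1.5-fold; *Lox* lies below the lower line in all strata, and *Plod2*, *Serpinh1* and *Loxl2* come nearer to 0 in stratum 4.

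As a description of which genes shared a layout, levels were correlated over 43 groups of at least 20 spots (section, genotype and cluster) on the log2(CPM + 1) scale. The groups came from 2 mice and differ in depth, and 8616 genes were searched. *P4ha1* and *P4ha2*, whose proteins are alternative catalytic subunits of the same enzyme, were each the other's nearest gene, with Pearson r = 0.97. Both had 0 UMIs in 1 group, the 24 section 1 control spots of the globin-led cluster 5. Each had 1 UMI in the section 2 control spots of that cluster. How much of their r rests on these near-empty groups was not tested. *Lox* was nearest to *Serpinh1* (0.95). *Serpinh1* was nearest to *Dap* (0.98) and *Ckap4* (0.97), and *Loxl1* to *Capn2* (0.92), *Arhgef25* (0.92) and *Col3a1* (0.91). *Loxl4* was nearest to *Slc13a5* (0.83), with the cartilage gene *Cnmd* at 0.82. *Loxl4* also had 0 UMIs in the control spots of cluster 5 in both sections, and *Plod2* had 0 in those of section 2. The part of these groups in the r values of *Loxl4* and *Plod2* was not tested. Over the 45 pairs among the 10 genes r ran from -0.01 (*Pcolce* and *Loxl4*) to 0.97, with a median of 0.47.

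The promoters of the pair with the highest likeness and of *Serpinh1*, the most read gene, are shown for their sequence. RefSeq promoters (GRCm38.p6) were given for 6 of the genes, *P4ha1*, *P4ha2*, *Plod1*, *Serpinh1*, *Pcolce* and *Loxl4*. The 250 bases before the start are printed 5′ to 3′ on the gene's strand, with matches of ACGTG on either strand, the core letters of hypoxia response elements and some E-boxes, in capitals. The positions in GRCm38.p6 are chr10:59323046-59323295 (+ strand) for *P4ha1*, chr11:54100674-54100923 (+) for *P4ha2* and chr7:99353240-99353489 (-) for *Serpinh1*.
P4ha1: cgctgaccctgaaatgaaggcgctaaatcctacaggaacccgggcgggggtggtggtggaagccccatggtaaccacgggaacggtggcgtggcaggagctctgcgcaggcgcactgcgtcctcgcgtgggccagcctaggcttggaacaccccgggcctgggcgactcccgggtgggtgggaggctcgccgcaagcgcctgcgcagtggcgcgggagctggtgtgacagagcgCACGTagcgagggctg
P4ha2: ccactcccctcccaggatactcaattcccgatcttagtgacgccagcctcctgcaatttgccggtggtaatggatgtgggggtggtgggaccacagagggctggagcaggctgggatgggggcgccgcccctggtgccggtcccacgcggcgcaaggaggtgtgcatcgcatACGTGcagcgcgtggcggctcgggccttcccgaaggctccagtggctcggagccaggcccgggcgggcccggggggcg
Serpinh1: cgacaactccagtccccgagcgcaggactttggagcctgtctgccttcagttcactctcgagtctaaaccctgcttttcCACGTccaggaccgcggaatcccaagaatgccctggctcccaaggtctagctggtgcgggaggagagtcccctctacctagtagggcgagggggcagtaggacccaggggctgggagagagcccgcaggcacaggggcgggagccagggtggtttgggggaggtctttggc
Each of these windows held 1 match of ACGTG. The promoters not printed, of *Plod1*, *Pcolce* and *Loxl4*, had no match, so the printed windows do not stand for all 6. In all, 3 of the 6 promoters had one, where 16.6% of 27025 promoters did. Of 5 further motifs searched on both strands, GGGCGG was in 6 of 6 (32.9% of all promoters), TATAAA in *Plod1* alone (13.0%), and CCAAT (34.5%), TGANTCA (6.87%) and GAANNTTC (6.78%) in 0 of 6. A match describes letters and not a bound site.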

How the data were processed

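Formalin-fixed sections were hybridized by the authors with the Visium mouse probe panel. Per the labels and methods, Space Ranger 1.3.0 and the mm39 build were used, and most analysis was done in Partek Flow. The values deposited are unscaled UMI tables, and they were handled as estimated counts since 10 gene rows hold values that are not whole; those of the 10 genes described are whole. The single row without a gene symbol was dropped (11.6 UMIs or 6.8e-05% of section 1, and 6.80 UMIs or 3.8e-05% of section 2), as were 5 spots without a genotype. Genotypes and positions were used as deposited. Cluster names and SpatialTime of 1344 section 1 control spots came from the authors' published spot table.

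UMIs were summed over spots and divided by their total. Ratios carry conditional exact binomial 95% intervals, which cover counting error only. A group at 0 was given 3 counts. Clusters came from log2(CPM + 1) values centered per section, 20 principal components, 15 neighbors and the Leiden method at resolution 0.5 (leidenalg 0.10.2, scikit-learn 1.9.0), over genes with a UMI in at least 0.3% of spots. All 10 genes are described, and pathway genes are named where they passed 1.5-fold in both sections, at most 6 by size. Most alike and leading genes were sought among those with at least 500 UMIs. The genes, lists and comparisons were chosen with earlier results of these data known. Alternatives were a section left out, TMM factors (edgeR 4.0.16, R 4.3.3), spots of at least 1000 UMIs, thinning to 1000 UMIs, a mean over spots, other resolutions, strata, bins, collagen denominators and folds, and clusters left out. Tested on simulated data for the all-spot comparison (11851 genes, 200 of them changed), 94% of genes changed 2-fold and 100% of those changed 4-fold were called in the right direction, 0.120% of unchanged genes were called, and 95.2% of intervals held the true ratio. The simulated counts were Poisson draws from the control profile of each section. They hold counting error alone, so these shares do not cover the spread between mice or differences in tissue makeup.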

Additional observations from a re-analysis of the deposited data

How the results depend on the processing

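Over all spots, 5 of 10 genes were lower, where 6.37% of all genes were. With section 1 left out 6 were lower (21.6% of all genes), and with section 2 left out 7 (8.09%). At 2-fold 4 were lower, without *Loxl2* (1.58%). Leaving out the muscle, globin, cartilage and woven bone clusters gave 3 (1.68%). That last setting was chosen after seeing the data and kept cluster 8, which also read high in muscle genes. The share of all genes that were lower was 4.33% of 19208, and higher 22.7%, when every gene with a UMI was counted. A group without UMIs was given 3 counts, and the mutant had fewer UMIs in total (3462224 against 13562254 in section 1). A gene with a few control UMIs and none in the mutant could thus be called higher by construction. How much of the 22.7% came from this was not counted. Per collagen UMI, 1 gene was higher and 2 were lower, where 39.3% and 0.608% of all genes were. With section 1 left out, 2 were higher (68.3%) and 2 lower (1.01%), and with section 2 left out, 1 (43.8%) and 4 (2.07%). After thinning to 1000 UMIs 0 were higher (*Loxl1* lost), where 31.5% of all genes were. Against *Col1a1* alone 1 was higher (53.0%) and 1 lower (*Lox* lost, 0.371%). Against fibrous and cartilage collagens together 2 were higher (70.7%) and 1 lower (*Lox* lost, 0.270%). At 2-fold 0 were higher (13.0%) and 0 lower (0.160%). Within clusters, 0 pairs were higher and 6 lower, which became 3 to 5 higher and 9 to 17 lower with 1 section left out, 1 higher and 3 lower after thinning, 1 higher at resolution 0.3 and at resolution 1.0, and 0 lower at 2-fold. In the collagen strata, 16 pairs were lower and 0 higher, which became 0 to 2 higher with 1 section left out and 6 lower at 2-fold. Shares of all genes are not given for these alternatives within clusters and strata, so their counts have no background. Along SpatialTime 6 genes were lower (8.50% of all genes), and 3 at 2-fold (3.31%). With 3 bins *P4ha1* was no longer lower (7.32%), and with a mean over spots *Loxl4* was lower as well (8.13%). For control cartilage over woven bone, 4 genes were higher and 0 lower, where 4.91% and 15.3% of all genes were. These counts became 2 higher after thinning (6.55%), 1 lower at resolution 0.3 (14.9%) and 1 higher at 2-fold (2.60%). *Loxl4* was higher as well at resolution 0.3 (3.47%) and with a mean over spots (3.75%). Fewer sections or a higher fold change these counts by construction, and the cause of the other moves was not tested. No paired analysis was possible because the result comes from no test; each ratio was taken within its own section. With 1 mouse per genotype, the spread between mice is unknown. *Loxl4*, and most genes in the globin and muscle clusters, had too few UMIs for small differences to be detectable.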
